A study of Mus musculus with 26 samples.

Results

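The fatty acid binding proteins are small cytoplasmic carriers that hold long-chain fatty acids and related lipids and pass them between membranes, enzymes and nuclear receptors. Each member carries the name of a tissue or cell type in which it is found. Fabp1 is the liver form, Fabp2 the intestinal form, Fabp5 the epidermal form, Fabp4 the adipocyte form, also made by macrophages and capillary endothelium, and Fabp7 the brain form, which in mouse liver has been described in Kupffer cells. The nuclear receptors PPAR-alpha and PPAR-gamma, which bind fatty acids, control several of these genes. The 5 genes Fabp1, Fabp2, Fabp4, Fabp5 and Fabp7 were taken by their Ensembl identifiers from a table of 55642 genes, and all 5 passed the filter on low counts. Fabp2 was chosen by its measured rise in the CDAHFD libraries over the chow libraries, so its values on diet and chow are given below as a description, with no test. The other members and the gene lists below were chosen with earlier results of these data known. Their p-values and counts against chow are not independent of that choice.

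The libraries came from mouse liver and fell into 4 groups. They were Mtarc1 homozygous knockout on CDAHFD (n = 8), Mtarc1 heterozygous knockout on CDAHFD (n = 7), wildtype on CDAHFD (n = 6) and wildtype on control chow (n = 5). Mtarc1 encodes an amidoxime-reducing molybdenum enzyme of the outer mitochondrial membrane. CDAHFD is a choline-deficient, amino acid-defined, high-fat diet that brings on fatty liver and was fed for 2 weeks. No knockout livers on chow were among the groups, so a genotype difference and a change in the response to the diet cannot be told apart. The strain, age and sex of the mice, and which part of Mtarc1 was removed, are not given in the sources used here. Samples are numbered but not said to be separate animals, and the p-values therefore reflect only differences among these samples, which may be technical.

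Libraries held 19.73 to 29.91 mega counts (M), as estimated by the authors (mean 24.79 M, SD 2.65, n = 26). Levels are CPM (counts per M) after TMM scaling, and differences are log2 fold changes (± SE) from an edgeR quasi-likelihood fit to all 26 libraries. A gene was called at a Benjamini-Hochberg adjusted p under 0.05 over the 17104 genes tested. Mtarc1 averaged 48.7 ± 10.4 CPM in homozygous, 161 ± 33.7 CPM in heterozygous and 235 ± 40.7 CPM in wildtype livers on CDAHFD, and 305 ± 40.2 CPM in wildtype livers on chow (SD). Homozygous livers thus kept 20.7% of the level in wildtype livers on CDAHFD. In library names, 9 libraries carry numbers in the 9000 series and 17 in the 11000 series. The labels do not call these batches. The 9000 series holds 2 homozygous, 3 heterozygous and 3 wildtype CDAHFD libraries and 1 chow library. The 11000 series holds 6, 4 and 3 CDAHFD libraries in the same order and 4 chow libraries. The hepatocyte markers Alb and Ttr averaged 55356 and 4195 CPM in wildtype livers on CDAHFD, against 79822 and 6530 CPM in wildtype livers on chow.

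Per kilobase of the principal transcript in the GENCODE annotation of GRCm38, the liver form stood far above the others in every group. Fabp1 averaged 3582 ± 748 CPM per kb in wildtype livers on CDAHFD, against 6243 ± 1370 CPM per kb in wildtype livers on chow. Next in level on CDAHFD was Fabp2, at 152 ± 21.6 CPM per kb in wildtype livers on CDAHFD, against 51.3 ± 4.99 CPM per kb in wildtype livers on chow. Fabp5 averaged 24.3 ± 6.72 CPM per kb in wildtype livers on CDAHFD, against 109 ± 36.7 CPM per kb in wildtype livers on chow. So Fabp2 and Fabp5 changed places between the diets, with no overlap between the libraries of these genes within either wildtype group. Fabp4 and Fabp7 were the lowest, at 11.3 ± 3.22 and 9.12 ± 1.81 CPM per kb in wildtype livers on CDAHFD, against 7.29 ± 1.33 and 2.85 ± 0.931 CPM per kb in wildtype livers on chow. These last levels differed by less than the spread between libraries on CDAHFD.

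RefSeq promoters of GRCm38.p6 were found for 3 of the 5 genes, and the 250 bases before the start are printed 5′ to 3′ on the plus strand, which is the strand of all 3 genes. Every window found is shown, whatever the direction of its gene on the diet. A link between a motif and that direction was not tested. Capitals mark TATAAA and the direct repeat AGGTCANAGGTCA, the element that PPAR and its partner RXR bind, searched on both strands with at most 1 mismatch.
Fabp1, chr6:71199629-71199878: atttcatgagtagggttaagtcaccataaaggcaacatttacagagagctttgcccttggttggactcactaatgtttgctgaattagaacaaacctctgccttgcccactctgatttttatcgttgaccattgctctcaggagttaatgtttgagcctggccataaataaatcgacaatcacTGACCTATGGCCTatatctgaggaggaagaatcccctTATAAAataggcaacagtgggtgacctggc
Fabp2, chr3:122894822-122895071: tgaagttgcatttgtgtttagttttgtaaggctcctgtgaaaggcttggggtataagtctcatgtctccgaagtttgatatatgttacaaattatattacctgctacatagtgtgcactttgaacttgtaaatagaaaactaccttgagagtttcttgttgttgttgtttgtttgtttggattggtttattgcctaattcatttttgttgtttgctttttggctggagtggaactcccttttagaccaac
Fabp7, chr10:57784673-57784922: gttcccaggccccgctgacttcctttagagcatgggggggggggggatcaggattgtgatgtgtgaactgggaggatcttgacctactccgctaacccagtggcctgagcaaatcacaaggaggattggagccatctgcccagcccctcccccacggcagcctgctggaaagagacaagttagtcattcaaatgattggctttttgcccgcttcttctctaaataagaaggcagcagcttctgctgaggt
The Fabp1 window held TGACCTATGGCCT, the repeat read from the other strand with 1 mismatch, 67 to 55 bases before the start. Of 32851 promoter windows of the same length, 0.484% held such a match, and 0.0335% held the exact repeat. Fabp1 also held TATAAA 30 to 25 bases before the start, which 12.4% of the windows hold. The single repeat unit AGGTCA, present in 14% of the windows, was found in the Fabp1 and Fabp7 windows, read from the other strand. In Fabp1 it lay 67 to 62 bases before the start, inside the match above, and again 9 to 4 bases before the start. In Fabp7 it lay 171 to 166 bases before the start. Neither capitalised motif was found in the Fabp2 or Fabp7 window, which says only that these letters are not there.

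The liver form, Fabp1 (ENSMUSG00000054422.8), was lower in all CDAHFD groups than on chow and was not called by genotype. Its lowest, median and highest values were 1720, 1914 and 2834 CPM in homozygous livers on CDAHFD and 1437, 1710 and 2386 CPM in heterozygous livers on CDAHFD. In wildtype livers they were 1208, 2081 and 2400 CPM on CDAHFD, and the 5 chow libraries held 4571, 2471, 3298, 3290 and 3630 CPM. All 6 wildtype CDAHFD libraries and all 7 heterozygous libraries lay below every chow library, as did 7 of the 8 homozygous libraries. Of all genes, 27.1% were called between wildtype livers on CDAHFD and on chow, 23.1% between homozygous CDAHFD and chow livers and 37.2% between heterozygous CDAHFD and chow livers. In wildtype livers Fabp1 fell on CDAHFD to 57.4% of its chow level (log2 fold change -0.80 ± 0.17, edgeR adjusted p = 0.001). The fall against chow was -0.73 ± 0.16 in homozygous livers (adjusted p = 0.00176) and -0.95 ± 0.17 in heterozygous livers (adjusted p = 0.000106, edgeR). These contrasts share the chow libraries, and the knockout groups differ from chow in both genotype and diet.

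Within the 9000 series, Fabp1 averaged 1836 CPM in wildtype livers on CDAHFD, against 4571 CPM in the single wildtype chow library. Within the 11000 series it averaged 2125 CPM on CDAHFD against 3173 CPM on chow, so the direction was the same in both. Beside this fall, 5 of 10 hepatocyte markers fell on the diet in wildtype livers and none rose, where 12.2% of all genes fell. The list median was -0.44 against -0.01 for all genes. The lowest p belonged to Ttr (-0.64 ± 0.13), Serpina1a (-0.66 ± 0.15), Apoa2 (-0.65 ± 0.15) and Alb (-0.53 ± 0.15), which encode secreted liver proteins. The summed level of the 10 was 65283 to 103777 CPM in wildtype livers on CDAHFD, against 104330 to 130536 CPM in wildtype livers on chow. Their part in the Fabp1 result was not tested. In whole tissue, fewer cells of a type and less RNA per cell cannot be told apart.

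On CDAHFD, Fabp1 differed from wildtype livers by 0.07 ± 0.15 in homozygous livers (95% interval -0.25 to 0.39, edgeR adjusted p = 0.935). In heterozygous livers the difference was -0.15 ± 0.16 (-0.48 to 0.17, edgeR adjusted p = 0.71). The libraries of the CDAHFD groups overlapped.

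The intestinal form, Fabp2 (ENSMUSG00000023057.6), which in the gut carries absorbed fatty acids, was higher in every CDAHFD group than on chow. Its lowest, median and highest values were 136, 157 and 206 CPM in homozygous livers on CDAHFD and 144, 153 and 161 CPM in heterozygous livers on CDAHFD. In wildtype livers they were 107, 154 and 166 CPM on CDAHFD, and the chow libraries held 47.7, 44.5, 54, 55.2 and 46 CPM. Every one of the 21 CDAHFD libraries lay above every chow library. The level was 2.97-fold higher in wildtype livers on CDAHFD than on chow (log2 fold change 1.57 ± 0.11), and the differences from chow were 1.73 ± 0.11 in homozygous and 1.62 ± 0.11 in heterozygous livers. These values chose the gene and are not tested here.

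The genotype values of Fabp2 on CDAHFD come from the same libraries in which its rise was seen, and are not independent of that choice. Fabp2 differed from wildtype livers by 0.16 ± 0.09 in homozygous livers (95% interval -0.04 to 0.35, edgeR adjusted p = 0.621) and by 0.05 ± 0.10 in heterozygous livers (-0.15 to 0.25, edgeR adjusted p = 0.854). Heterozygous livers were the most even of the groups for this gene, with a coefficient of variation of 4.55%, against 14.2% in homozygous and 14.1% in wildtype livers on CDAHFD and 9.74% on chow. The wider spread in wildtype livers on CDAHFD rested on replicate 3, at 107 CPM, with the other 5 libraries between 146 and 166 CPM. Within the 11000 series, Fabp2 averaged 164 CPM in homozygous, 155 CPM in heterozygous and 158 CPM in wildtype livers on CDAHFD, and 49.9 CPM on chow.

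Markers of the gut lining were at or near 0. Of 10 enterocyte markers, Alpi and Cdx1 were at 0 in every library, and 8, these included, averaged under 0.1 CPM over all libraries. The summed level of the 10 was 1.96 to 3.57 CPM in wildtype livers on CDAHFD and 1.66 to 2.46 CPM in wildtype livers on chow. Slc5a1, a sodium-glucose transporter, was called on the diet, as 1 of the 2 enterocyte markers that passed the filter, averaging 2.19 CPM in wildtype livers on CDAHFD, against 1.24 CPM in wildtype livers on chow (log2 fold change 0.82 ± 0.26, edgeR adjusted p = 0.0187).

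The epidermal form, Fabp5 (ENSMUSG00000027533.11), showed the largest fall of the 5 genes on the diet. Its lowest, median and highest values were 12.3, 19.3 and 42.3 CPM in homozygous livers on CDAHFD and 11.4, 18.4 and 21.1 CPM in heterozygous livers on CDAHFD. In wildtype livers they were 16.9, 23.3 and 35.7 CPM on CDAHFD, and the chow libraries held 71.2, 139, 116, 144 and 68.1 CPM. Every CDAHFD library lay below every chow library, and the chow libraries themselves split into 71.2 and 68.1 CPM on one side and 116 to 144 CPM on the other. In wildtype livers Fabp5 fell on CDAHFD to 22.3% of its chow level (log2 fold change -2.16 ± 0.29, edgeR adjusted p = 8.45e-06). Against the same chow libraries the fall was -2.20 ± 0.27 in homozygous livers (adjusted p = 4.16e-06) and -2.66 ± 0.28 in heterozygous livers (adjusted p = 4.61e-07, edgeR).

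By genotype, Fabp5 was not called. Homozygous livers differed from wildtype livers on CDAHFD by -0.04 ± 0.26 (95% interval -0.57 to 0.50, edgeR adjusted p = 0.984), and 2 homozygous libraries, at 40.5 and 42.3 CPM, lay above every wildtype library while 4 lay below every one. Heterozygous livers differed by -0.49 ± 0.27 (-1.04 to 0.06, edgeR adjusted p = 0.569). A two-sided exact permutation test of that single difference gave p = 0.028, 1 of 27 such tests and not adjusted. Of the 957 stretches of 31 bases in the coding transcript, 33.1% also occur in 5 other annotated genes, so reads could in principle be split. Those 5 genes together held 0 to 2.3 estimated counts in a library, against at least 296 for Fabp5. Of 8 epidermal keratinocyte markers, 5 averaged under 0.1 CPM over all libraries, and neither of the 2 that passed the filter was called on the diet.

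The adipocyte and macrophage form, Fabp4 (ENSMUSG00000062515.4), was a low-abundance gene whose diet call lay near the threshold. Its lowest, median and highest values were 5.47, 7.4 and 8.93 CPM in homozygous livers on CDAHFD and 4.35, 7.35 and 12.5 CPM in heterozygous livers on CDAHFD. In wildtype livers they were 6.22, 11.5 and 13.1 CPM on CDAHFD, and the chow libraries held 7.37, 7.16, 4.44, 6.88 and 6.81 CPM. The wildtype CDAHFD libraries split, with 4 between 11.4 and 13.1 CPM, above every chow library, and 2, at 6.82 and 6.22 CPM, within the chow range. In wildtype livers Fabp4 rose 1.55-fold on CDAHFD over chow (log2 fold change 0.64 ± 0.23, edgeR adjusted p = 0.0366). The call was lost when any 1 of the chow libraries 2, 3, 4 and 5 or of the wildtype CDAHFD libraries 1, 2, 3 and 5 was left out (0.53 to 0.67, adjusted p = 0.0518 to 0.0984, edgeR).

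Within the 9000 series Fabp4 averaged 8.22 CPM in homozygous, 6.33 CPM in heterozygous and 12.1 CPM in wildtype livers on CDAHFD, and the single chow library held 7.37 CPM. Within the 11000 series the averages were 6.88 CPM in homozygous, 8.9 CPM in heterozygous and 8.25 CPM in wildtype livers on CDAHFD, and 6.32 CPM in wildtype livers on chow. Wildtype livers on CDAHFD were above chow in both series, by 0.38 in the 11000 series (edgeR adjusted p = 0.412). Knockout livers were not called against chow: the differences were 0.14 ± 0.21 in homozygous livers (edgeR adjusted p = 0.668) and 0.26 ± 0.22 in heterozygous livers (edgeR adjusted p = 0.365).

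On CDAHFD, Fabp4 differed from wildtype livers by -0.49 ± 0.20 in homozygous livers (95% interval -0.90 to -0.09, edgeR adjusted p = 0.375) and by -0.38 ± 0.20 in heterozygous livers (-0.79 to 0.04, edgeR adjusted p = 0.569). Only 2 of 8 homozygous libraries lay below every wildtype library. Homozygous livers averaged less than wildtype livers in both number series. In the 9000 series only 2 homozygous libraries (7.5 to 8.93 CPM) and 3 wildtype libraries (11.4 to 13.1 CPM) were compared, without overlap. In the 11000 series 6 homozygous libraries (5.47 to 7.83 CPM) overlapped 3 wildtype libraries (6.22 to 11.7 CPM). Heterozygous livers averaged less than wildtype livers in the 9000 series and more in the 11000 series. Of 8 adipocyte markers, Lep was at 0 in every library and Adipoq, Plin1, Retn and Cfd averaged under 0.1 CPM in every group. The other 3 were not called on the diet: Adrb3 averaged 13.3 CPM, Lipe 18.7 CPM and Pck1, which hepatocytes also make, 2725 CPM in wildtype livers on CDAHFD, against 14.9, 18.7 and 2348 CPM in wildtype livers on chow. Endothelial markers, another source of Fabp4, summed to 142 to 257 CPM in homozygous, 125 to 304 CPM in heterozygous and 207 to 264 CPM in wildtype livers on CDAHFD and to 207 to 259 CPM on chow, and 0 of 10 were called on the diet.

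The brain form, Fabp7 (ENSMUSG00000019874.12), was higher in every CDAHFD group than in wildtype livers on chow. Its lowest, median and highest values were 2.92, 4.64 and 5.79 CPM in homozygous livers on CDAHFD and 4.73, 6.09 and 9.68 CPM in heterozygous livers on CDAHFD. In wildtype livers they were 5.5, 7.65 and 9.16 CPM on CDAHFD, and the chow libraries held 3.27, 1.66, 1.92, 2.91 and 1.69 CPM. All 6 wildtype and all 7 heterozygous CDAHFD libraries lay above every chow library, as did 7 of the 8 homozygous libraries. In wildtype livers Fabp7 rose 3.19-fold on CDAHFD over chow (log2 fold change 1.67 ± 0.21, edgeR adjusted p = 3.06e-06). Against wildtype chow livers the difference was 0.95 ± 0.20 in homozygous livers (adjusted p = 0.00139) and 1.51 ± 0.21 in heterozygous livers (adjusted p = 7.35e-06, edgeR).

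**Figure D1:**
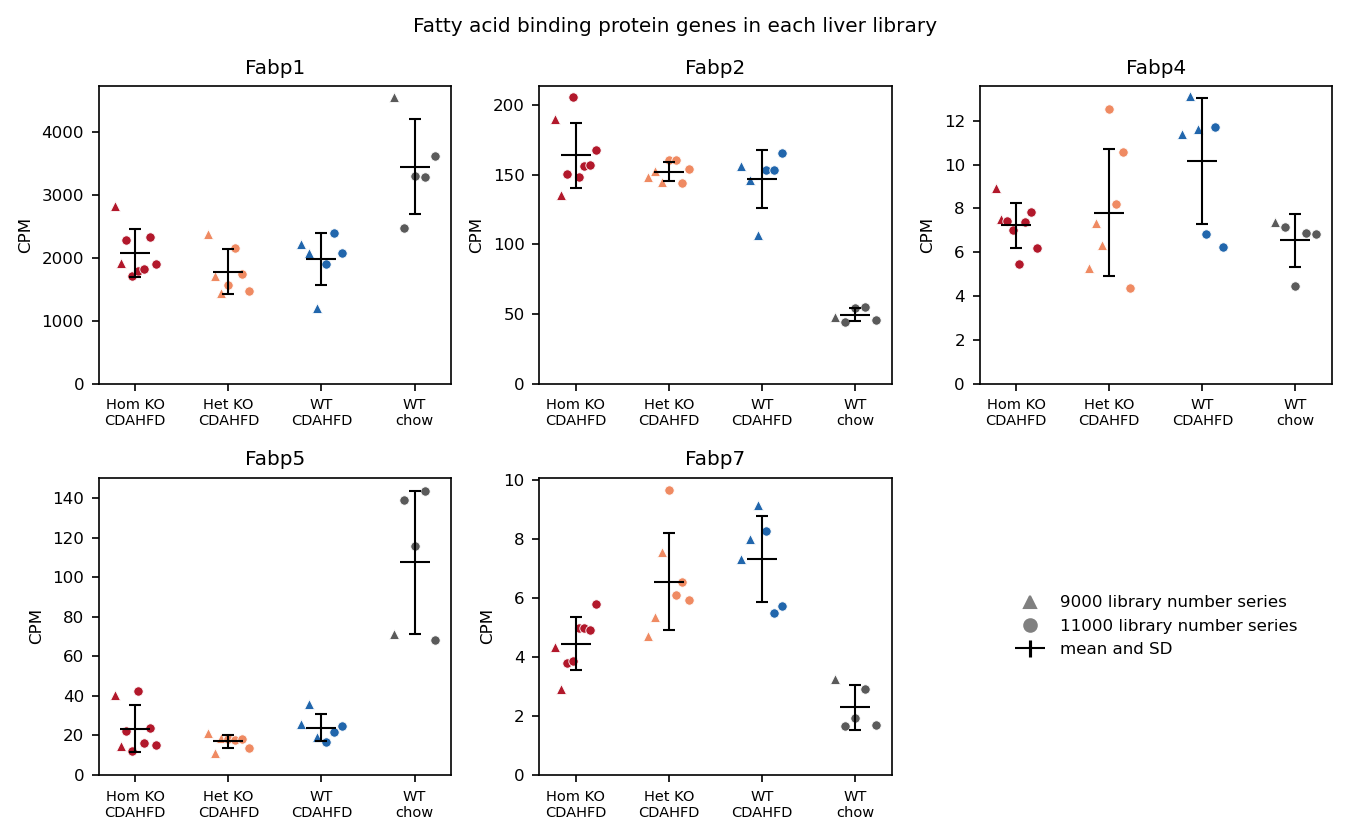
CPM of each gene (y axis, from 0) in each library, by group, with triangles for the 9000 and circles for the 11000 library number series, and the mean and SD as bars. Fabp2 lies above chow and Fabp5 below chow in all 21 CDAHFD libraries, and 7 of 8 homozygous libraries lie below every wildtype CDAHFD library for Fabp7.

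Of the 5 genes, Fabp7 had the smallest genotype p, and it was not called. It averaged 4.45 ± 0.904 CPM in homozygous livers on CDAHFD, against 7.33 ± 1.46 CPM in wildtype livers on CDAHFD (SD). The difference was -0.72 ± 0.18 (95% interval -1.08 to -0.36, edgeR adjusted p = 0.165), and 7 of 8 homozygous libraries lay below every wildtype library. Over all genes, 0.00585% were called in this contrast, which is Mtarc1 alone, and 9.97% had an unadjusted p under 0.05. DESeq2 on the same counts gave Fabp7 an adjusted p of 0.0368, and a two-sided exact permutation test gave p = 0.000999, not adjusted. The edgeR and DESeq2 calls differ for this gene.

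Set against heterozygous livers, Fabp7 in homozygous livers differed by -0.56 ± 0.17 (95% interval -0.91 to -0.22, edgeR adjusted p = 0.377). Heterozygous livers averaged 6.56 ± 1.64 CPM and differed from wildtype livers on CDAHFD by -0.16 ± 0.18 (-0.53 to 0.21, edgeR adjusted p = 0.733), less than the spread between libraries. Within the 9000 series Fabp7 averaged 3.64 CPM in homozygous, 5.88 CPM in heterozygous and 8.16 CPM in wildtype livers on CDAHFD, and the chow library held 3.27 CPM. Within the 11000 series the averages were 4.72, 7.06 and 6.5 CPM in the homozygous, heterozygous and wildtype CDAHFD groups, and 2.05 CPM on chow. Homozygous livers averaged less than wildtype livers in both series, with 2 against 3 libraries in the 9000 series. Heterozygous livers averaged less in one series and more in the other. A library held from 32 to 300 estimated counts of Fabp7.

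Over the 3 genotype contrasts on CDAHFD, none of the 5 genes was called, with a background of 0.00585% of genes called for homozygous livers against wildtype and against heterozygous livers, and 0% for heterozygous against wildtype livers (edgeR). At an unadjusted p under 0.05, Fabp4 and Fabp7 passed for homozygous against wildtype livers and Fabp7 for homozygous against heterozygous livers. The unadjusted background was 9.97%, 8.44% and 7.13% for homozygous against wildtype, heterozygous against wildtype and homozygous against heterozygous livers. In the wildtype diet contrast, where 27.1% of all genes were called, all 4 tested members were called (Fabp1 and Fabp5 lower, Fabp4 and Fabp7 higher), and nothing is read from that count because the genes were chosen with diet results known. Against chow, 3 of 4 tested members were called in homozygous livers (background 23.1%) and 3 of 4 in heterozygous livers (background 37.2%), Fabp4 being the exception in both. Nothing is read from these counts either, for the same reason, and they share the chow libraries with the wildtype diet contrast.

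**Figure D2:**
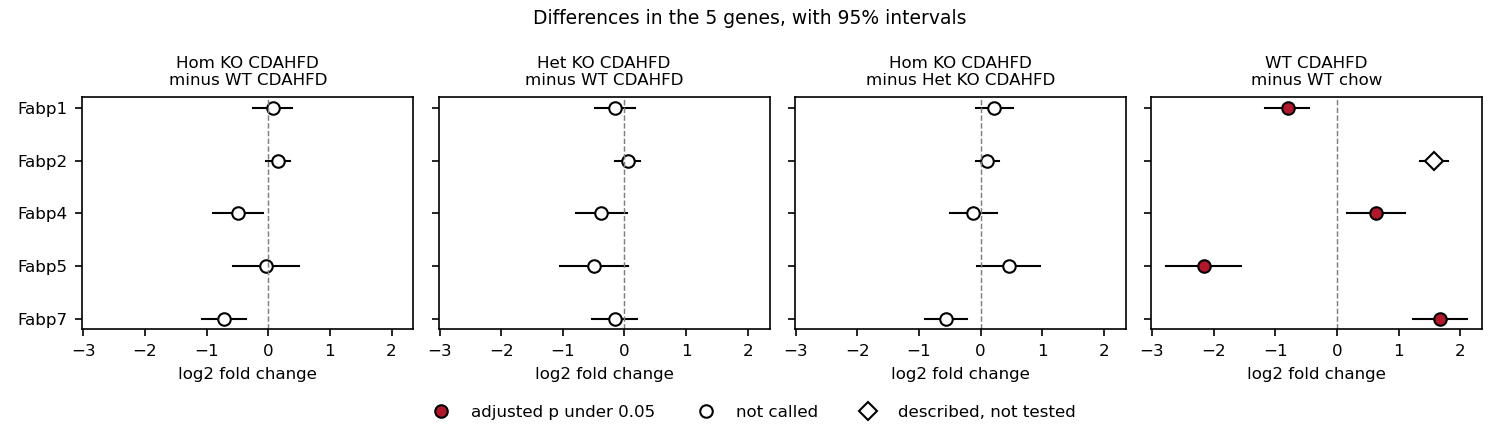
Log2 fold change (x axis) of each gene in 4 contrasts, with bars for 95% intervals, filled circles for adjusted p under 0.05, open circles for genes not called and a diamond for Fabp2, which is described and not tested on the diet. In the diet panel Fabp1 (-0.80) and Fabp5 (-2.16) lie left of 0 and the other genes right of it, and no genotype panel has a filled circle.

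Myeloid cells were followed through 12 markers of monocyte-derived macrophages, since macrophages are known to make Fabp4 and liver macrophages Fabp7. On the diet 11 of 12 rose in wildtype livers and none fell, where 14.8% of all genes rose. The list median was 2.21 against -0.01 for all genes. This list, like the other marker lists, was chosen with earlier results of these data known, so nothing is read from its count. Of these markers, the lowest p belonged to Trem2 (3.39 ± 0.33), Cd68 (1.84 ± 0.20), Mmp12 (5.85 ± 0.69) and Cd63 (2.07 ± 0.27). Their summed level ran from 215 to 401 CPM in homozygous, 293 to 594 CPM in heterozygous and 302 to 809 CPM in wildtype livers on CDAHFD, and from 161 to 204 CPM in wildtype livers on chow. Wildtype CDAHFD replicates 2 and 3 held 632 and 809 CPM, and the other 4 libraries of that group 302 to 407 CPM. In homozygous against wildtype livers on CDAHFD all 12 were below 0, with a median of -0.96 against 0.01 for all genes, and 0 were called. The part of these cells in the Fabp7 and Fabp4 values was not tested.

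**Figure D3:**
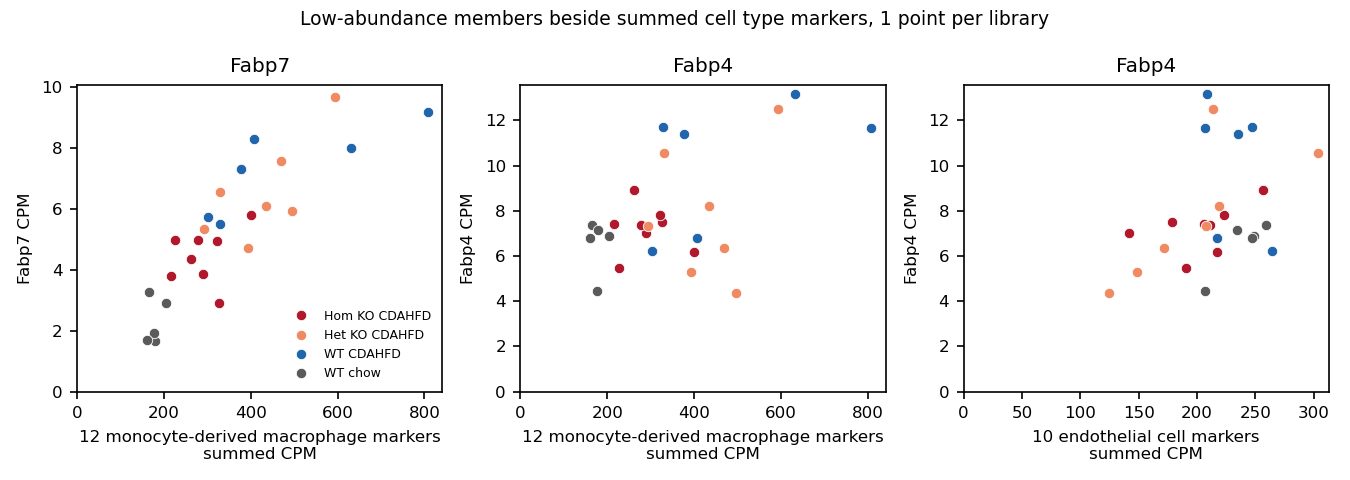
Each point is 1 library, coloured by group: Fabp7 CPM against the summed CPM of 12 monocyte-derived macrophage markers (left panel), and Fabp4 CPM against the same sum (middle) and against the sum of 10 endothelial cell markers (right). Chow libraries sit lowest for the macrophage sum (161 to 204 CPM), 1 homozygous library lies among them for Fabp7 (2.92 CPM), and the homozygous libraries reach 401 CPM of the macrophage sum, against 809 CPM in wildtype livers on CDAHFD.

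Kupffer cells, the resident macrophages of the liver, had 9 markers, of which 7 rose on the diet in wildtype livers and none fell. Their median was 1.16, against -0.01 for all genes, of which 14.8% rose. C1qb (1.17 ± 0.14) and C1qc (1.16 ± 0.15) had the lowest p. The Kupffer markers summed to 416 to 781 CPM in homozygous, 469 to 715 CPM in heterozygous and 585 to 845 CPM in wildtype livers on CDAHFD, against 249 to 479 CPM on chow. Of 10 stellate cell and myofibroblast markers, 5 rose on the diet and none fell (median 0.53), led by Col3a1 (2.12 ± 0.22). In homozygous against wildtype livers 0 of the Kupffer and 0 of the stellate markers were called, with medians of -0.26 and -0.39. Neural and glial markers, which would accompany the brain form in nervous tissue, had 0 of 5 tested genes called on the diet and summed to 17.6 to 27.4 CPM in wildtype livers on CDAHFD, against 27.6 to 32 CPM on chow.

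Genes with the pattern most like each member were found by Pearson's r of log2 CPM over 26 libraries, among 13938 genes. These values are descriptions, since the points share diet and genotype groups. Fabp1 was most like Apoa2 (0.943), H2-Ke6 (0.918) and Slc16a11 (0.910), and Fabp2 most like Pgm3 (0.960), Ung (0.955) and Cgref1 (0.943). Pgm3, an enzyme on the way to a sugar nucleotide for glycosylation, averaged 41.1 CPM in homozygous, 39.2 CPM in heterozygous and 34.1 CPM in wildtype livers on CDAHFD, and 12.1 CPM on chow. Fabp5 was most like Serpina4-ps1 (0.915), Gm16551 (0.914) and Lifr (0.913), the receptor of leukemia inhibitory factor. Fabp7 was most like Srgn (0.953), a proteoglycan of blood cell granules, Ear2 (0.945) and Vcam1 (0.935), an adhesion molecule for leukocytes. Fabp4 had the weakest likeness, to Sept8 (0.858), Adgre5 (0.841) and Pcolce (0.837).

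Fabp4 and Fabp5 lie in one gene cluster on chromosome 3. There the RefSeq annotation of GRCm38.p6 gives the order Fabp5, Pmp2, Fabp9, Fabp4 and Fabp12 with no other coding gene between. On the diet the members at positions 1 and 4 went in opposite directions, Fabp5 by -2.16 ± 0.29 and Fabp4 by 0.64 ± 0.23. The genes between them were close to silent: Pmp2, the myelin form, reached at most 0.0428 CPM and Fabp9, the testis form, at most 0.106 CPM in any library. Fabp12 averaged 0.702 ± 0.341 CPM in wildtype livers on CDAHFD, against 0.889 ± 0.25 CPM in wildtype livers on chow (SD), and was not called (edgeR adjusted p = 0.525). The coding sequences of Fabp4 and Fabp5 were identical at 67% of 385 aligned bases, and no stretch of 31 bases was shared among the transcripts of the 5 genes.

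Of other genes of the intracellular lipid-binding family, Fabp3, Fabp6, Rbp2, Rbp7, Crabp1 and Crabp2 each averaged under 1 CPM in every group. Fabp3, the heart form, averaged 0.251 ± 0.127 CPM in homozygous, 0.146 ± 0.0638 CPM in heterozygous and 0.24 ± 0.125 CPM in wildtype livers on CDAHFD, and 0.198 ± 0.16 CPM on chow. Neither Fabp3 nor the genes that follow passed the filter on low counts. Fabp6, the ileal bile acid carrier, was at 0 in all 21 CDAHFD libraries. Rbp2, Rbp7, Crabp1 and Crabp2 averaged under 0.1 CPM in every group.

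The genes that work beside these carriers moved in both directions on the diet. Of 22 genes of fatty acid uptake, binding and activation, 3 rose and 7 fell in wildtype livers on CDAHFD (median -0.07 against -0.01 for all genes, of which 14.8% rose and 12.2% fell). Cd36, a fatty acid translocase, averaged 121 CPM on CDAHFD against 36.3 CPM on chow (1.74 ± 0.24, edgeR adjusted p = 8.28e-06), and lipoprotein lipase, Lpl, averaged 116 CPM against 38.7 CPM (1.59 ± 0.25, edgeR adjusted p = 4.92e-05). The acyl-CoA synthetase Acsl3 (-1.01 ± 0.14) and the acyl-CoA binding protein Dbi (-0.60 ± 0.11) fell, as Fabp1 did. In homozygous against wildtype livers none of the 22 was called (median 0.08), Lpl having the lowest p (-0.70 ± 0.22, edgeR adjusted p = 0.252).

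Of 22 PPAR-alpha genes, 5 rose and 2 fell on the diet in wildtype livers (median 0.09). Called or not, 14 of the 22 were above 0 and 8 below. Of all genes, 14.8% rose and 12.2% fell. Cpt1a, the gatekeeper of mitochondrial fatty acid oxidation (0.87 ± 0.20), and the hormone gene Fgf21 (3.18 ± 0.83) rose. Cyp4a10, a fatty acid hydroxylase (-1.35 ± 0.31), and the thioesterase Acot1 (-1.64 ± 0.40) fell. Both have close paralogs with which reads may be shared. Ppara itself was not called (0.10 ± 0.20, edgeR adjusted p = 0.741). In homozygous against wildtype livers 0 of 22 were called (median -0.03), with Acot2 at -0.48 ± 0.25 (edgeR adjusted p = 0.56).

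Of 17 PPAR-gamma and adipocyte-type genes, 13 passed the filter on low counts, of which 6 rose and 1 fell on the diet in wildtype livers. Of all genes, 14.8% rose and 12.2% fell. The lipid droplet gene Cidec averaged 18.9 CPM on CDAHFD against 0.787 CPM on chow (4.56 ± 0.62, edgeR adjusted p = 1.01e-05), and Pparg averaged 16.9 CPM against 5.63 CPM (1.58 ± 0.24, edgeR adjusted p = 2.35e-05). Cd36 and Lpl belong to this list too. The member that fell was Scd1, a fatty acid desaturase, at 159 CPM on CDAHFD against 1787 CPM on chow (-3.49 ± 0.43, edgeR adjusted p = 2.88e-06). In homozygous against wildtype livers 0 of 13 were called, with a median of -0.27 against 0.01 for all genes.

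**Figure D4:**
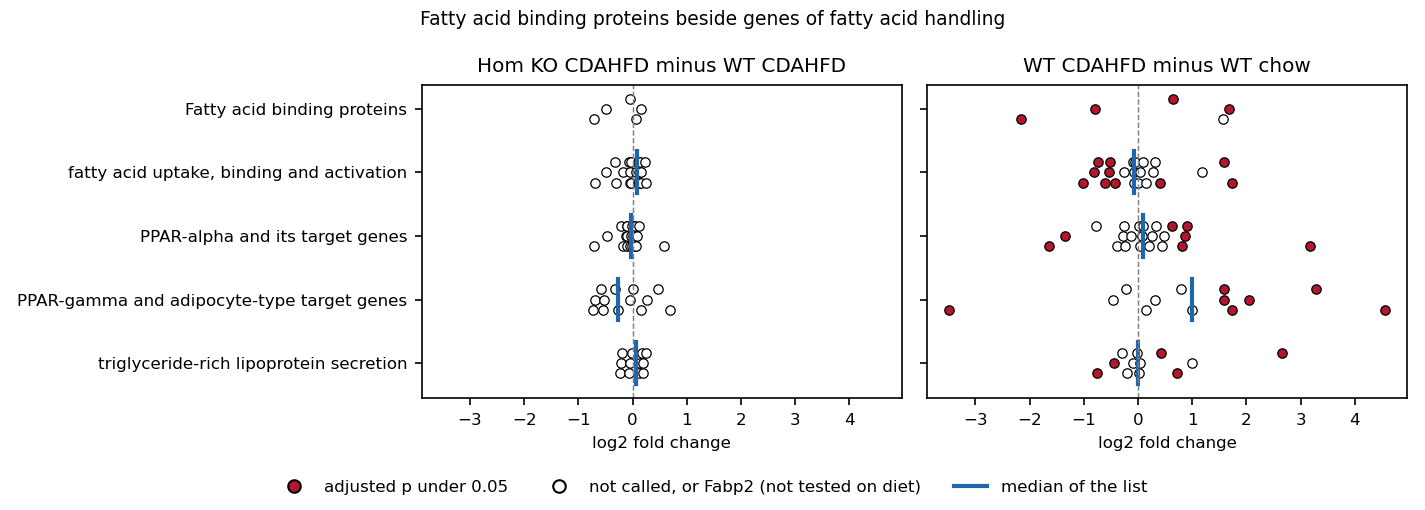
Log2 fold change (x axis) of the 5 fatty acid binding protein genes and of each tested gene in 4 lists, for homozygous against wildtype livers on CDAHFD (left) and wildtype livers on CDAHFD against chow (right). Filled points passed an adjusted p of 0.05 and vertical bars are list medians, which stay between -0.27 and 0.08 in the left panel.

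Of 12 genes of triglyceride-rich lipoprotein secretion, 3 rose and 2 fell on the diet in wildtype livers (median -0.01). Of all genes, 14.8% rose and 12.2% fell. Apoa4, an apolipoprotein that is mainly intestinal in humans, averaged 2052 CPM on CDAHFD against 326 CPM on chow (2.65 ± 0.28, edgeR adjusted p = 4.24e-07), beside the higher Fabp2. Apoc2, the activator of lipoprotein lipase, rose (0.72 ± 0.13), while Apoc3 (-0.75 ± 0.17) and Tm6sf2 (-0.45 ± 0.12) fell. In homozygous against wildtype livers 0 of 12 were called (median 0.06), Tm6sf2 having the lowest p (0.25 ± 0.11, edgeR adjusted p = 0.434).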

How the data were processed

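Liver RNA was sequenced from NEBNext Ultra II libraries, per the labels' protocols. The deposited table held estimated counts for 55642 Ensembl genes in 26 libraries (0 unused columns). Adapter trimming software cutadapt 3.5, the transcript quantifier Salmon 1.4.0 and the builds GRCm39 and mm39 are named in the submitters' processing notes. Strand use and the summing of transcripts to genes are not given in the sources used here. Symbols came from a GENCODE annotation of GRCm38 (51475 IDs matched, 92.5%), as did transcript lengths. The promoters and the gene order on chromosome 3 are RefSeq's.

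After rounding, the estimated counts deposited by the authors entered edgeR 4.0.16 (R 4.3.3), with TMM factors (0.87 to 1.14), filterByExpr and robust quasi-likelihood F tests, with the SE taken as the absolute log2 fold change over the square root of F. The procedure was tested on simulated data. CPM means are given ± SD. Alternatives used DESeq2 1.42.0 and limma 3.58.1. Libraries of 1 group differed by far more than sampling noise (chi-square per degree of freedom at least 16.6 over 74 pairs).

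The members and the gene lists were chosen with earlier results of these data known. The text names the 5 members, Mtarc1, some other family members (not all of the family is reported here), up to 4 called genes of lowest p per list (or the lowest where none was called), and the 3 genes most like each member with a mean of at least 1 CPM. Ppara, the adipocyte markers and markers at or near 0 were named after their values were seen.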

Additional observations from a re-analysis of the deposited data

Results flagged for a closer look

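Among 20 sets of values (5 genes in 4 groups), 2 held a library far from the others of its group, and chance alone gives about 1 in 20. Wildtype CDAHFD replicate 3 held 107 CPM of Fabp2, with the other 5 libraries of its group between 146 and 166 CPM. The same library was lowest in its group for Fabp1, at 1208 CPM, and highest for Fabp7, at 9.16 CPM. It was also highest in its group for the summed markers of monocyte-derived macrophages (809 CPM), Kupffer cells (845 CPM), stellate cells and myofibroblasts (768 CPM) and cholangiocytes (219 CPM), and their part in its values was not tested. The macrophage and cholangiocyte lists share the gene Spp1, so their sums are not independent. Wildtype chow replicate 3 held 4.44 CPM of Fabp4, with the other 4 chow libraries between 6.81 and 7.37 CPM. Without it the Fabp4 diet difference was 0.53 (edgeR adjusted p = 0.0984).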

How the results depend on the processing

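Leaving out 1 library at a time kept every member's direction in the contrasts against chow, with log2 fold changes of -0.90 to -0.68 for Fabp1, 1.54 to 1.65 for Fabp2, 0.53 to 0.74 for Fabp4, -2.30 to -2.04 for Fabp5 and 1.58 to 1.84 for Fabp7 in the wildtype diet contrast. Small uncalled differences changed sign in such fits: Fabp1 ranged from -0.04 to 0.13 and Fabp5 from -0.22 to 0.11 in homozygous against wildtype livers, Fabp2 from -0.03 to 0.09 in heterozygous against wildtype livers, and Fabp4 from -0.22 to 0.05 in homozygous against heterozygous livers. The Fabp4 diet call was lost with limma voom (0.60, adjusted p = 0.0678), with the number series as a covariate (0.60, adjusted p = 0.0634) and in the 11000 series alone (0.38). In the 9000 series alone (9 libraries, 1 of them chow, assumed to vary like the other groups) no tested member was called against chow, a design in which missing calls say nothing of stability. The wildtype diet values were then -1.32 (Fabp1), 0.71 (Fabp4), -1.41 (Fabp5) and 1.32 (Fabp7), those against chow -0.94 (Fabp1), -1.37 (Fabp5) and 0.15 (Fabp7) in homozygous and -1.31 (Fabp1), -0.21 (Fabp4), -2.06 (Fabp5) and 0.85 (Fabp7) in heterozygous livers. By genotype that series turned Fabp5 to 0.04 in homozygous and Fabp1 to 0.01 in heterozygous against wildtype livers, and Fabp4 to 0.37 in homozygous against heterozygous livers. The 11000 series turned Fabp1 to -0.10 and Fabp5 to 0.07 in homozygous, and Fabp2 to -0.02, Fabp4 to 0.12 and Fabp7 to 0.13 in heterozygous against wildtype livers. Sizes moved too: over the 11 other settings, homozygous minus wildtype values ran from -0.10 to 0.38 (Fabp1), 0.06 to 0.26 (Fabp2), -0.55 to -0.26 (Fabp4), -0.14 to 0.07 (Fabp5) and -1.17 to -0.46 (Fabp7), and heterozygous minus wildtype values from -0.29 to 0.01, -0.02 to 0.13, -0.92 to 0.12, -0.65 to -0.30 and -0.46 to 0.13 in the same order.

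Scaling to library totals moved the median of all genes by 0.23 in the wildtype diet contrast and by 0.20 in the other contrasts with chow, and Fabp2 became 1.80, 1.93 and 1.82 in wildtype, homozygous and heterozygous livers. In share of all counts, Fabp1 averaged 0.207% in wildtype livers on CDAHFD against 0.307% on chow, and Fabp5 0.00252% against 0.00958%. Both falls were smaller than after TMM scaling. Fabp4 averaged 0.00107% against 0.000582% and Fabp7 0.000769% against 0.000205%, larger rises than after TMM scaling. Fabp7 in homozygous against wildtype livers was called by DESeq2 (-0.72, adjusted p = 0.0368), and unadjusted two-sided exact permutation tests passed for it (-0.72, p = 0.000999), for Fabp4 (-0.45, p = 0.0346), for Fabp5 in heterozygous against wildtype livers (-0.48, p = 0.028) and for Fabp7 in homozygous against heterozygous livers (-0.55, p = 0.00389). Genes called in homozygous against wildtype livers numbered 1 with edgeR and 47 with DESeq2, in heterozygous against wildtype livers 0 and 2, and in homozygous against heterozygous livers 1 and 15. Genes called on the diet in wildtype livers numbered 4630, and 2264 and 418 in the 11000 and 9000 series alone. Against chow the 9000 series alone called 7 genes in homozygous livers, against 3953, and 28 in heterozygous livers, against 6361, with 1 chow library and fewer libraries in all.

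Libraries were not treated as paired by sample number. Same-numbered deviations correlated over 0.1 in 2 of 6 pairs for homozygous against wildtype, 4 of 6 for heterozygous against wildtype and 4 of 7 for homozygous against heterozygous livers. Against chow they did so in 1 of 5 (homozygous), 3 of 5 (heterozygous) and 2 of 5 (wildtype), so in no contrast in every pair. Pairs of unlike number were not compared, so these values cannot tell whether the numbers pair the libraries. With the sample number as a replicate block, Fabp5 became 0.03 in homozygous against wildtype livers, the Fabp4 diet difference was 0.66 (adjusted p = 0.0584), and 2 genes were called in homozygous against wildtype livers. The causes of these changes were not tested. Fabp7 held 32 to 300 and Fabp4 83 to 398 estimated counts per library, and the part of depth in their spread was not tested.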
